A study of Mus musculus with 12 samples.

Results

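The effect of ischemia-reperfusion (IR) on the mouse heart transcriptome was read by setting 6 reperfused hearts against 6 hearts that were perfused throughout (non-IR), with genotype held as an additive term. Each side held 3 hearts of C57BL/6J mice (C57) and 3 hearts of Slit2-Tg mice, so that all 12 libraries of the series entered the comparison. The Slit2-Tg line carries a human Slit2 cDNA under the CMV promoter, which is not specific to a cell type, was founded by injection of C57 × CBA F1 oocytes and was screened as heterozygotes. All hearts came from excised organs on a Langendorff apparatus, in which oxygenated buffer without blood is driven through the aorta into the coronary vessels. The IR hearts were equilibrated, stopped by no-flow global ischemia and then reperfused, while the non-IR hearts stayed on the apparatus for the same total time. The genes reported are those that this 6-against-6 contrast resolved: of 52858 genes in the files, 15240 had enough reads to be tested, and 621 of these passed a Benjamini-Hochberg adjusted p of 0.05 in limma.

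Cardiac cells that lose and regain oxygen are known to switch on a set of fast transcriptional programs. Heat shock factor drives the genes of molecular chaperones, which hold and refold damaged proteins. Immediate early genes encode transcription factors that are copied without new protein synthesis, and NF-kB drives cytokines, adhesion molecules and the inhibitors that later shut it off. Reperfusion is a particular trigger of these programs, and an isolated heart without circulating blood samples the cells that remain in the excised tissue. Red cell and lung genes also had reads, as given below.

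Depth differed little between the sides. The values allowed the whole reads behind each gene to be recovered, and these summed to 18771644 to 24841291 reads in the IR libraries and to 16601154 to 23524410 reads in the non-IR libraries. Transcripts of the mitochondrial genome took 19.7% to 26.0% of the reads. Cardiomyocyte genes were abundant in every library. The summed level of 10 of them ran from 23027 to 30542 FPKM (fragments per kilobase of gene, scaled to library depth) in non-IR hearts. In IR hearts it ran from 25840 to 28644 FPKM, with Mb, the gene of myoglobin, as the most abundant. The most abundant markers of other lists were Fabp4 for endothelium, Gsn for fibroblasts, Des for smooth muscle and pericytes, Clu for atrium and Ckm for skeletal muscle. For adipocytes it was Cidea, for red cells Hbb-bs, for lymphocytes Cd4, for mesothelium Wt1 and for lung Scgb1a1. Lung genes summed to 5.72 to 12.5 FPKM in C57-non-IR and C57-IR replicates 2 and 3 and in Slit2-non-IR replicate 2. In every other library they summed to 0.121 to 0.279 FPKM, and the source of this difference was not tested. Murine Slit2 was low in every library, at a median of 0.183 FPKM (0.169 to 0.222) in non-IR and a median of 0.224 FPKM (0.0847 to 0.813) in IR hearts, and it did not pass the test (log2 fold change 0.11 ± 0.10, adjusted p = 0.683 in limma). These reads cannot check the transgene, because the human cDNA is not a feature of the files. Replicates of a group differed by more than sampling noise in all 12 pairs, with a chi-square per gene of 8.26 to 52.3, so that no library was counted as a copy of another. No gene was called in the marker lists of cardiomyocytes, endothelium, fibroblasts, smooth muscle, macrophages, neutrophils, red cells, lymphocytes, atrium, adipocytes, lung and skeletal muscle. Few lymphocyte and neutrophil markers could be tested, 1 of 10 and 3 of 10. For lung and red cells 3 of 8 and 4 of 6 could. Over all tested genes 4.07% were called, so that no call in a list of at most 10 genes is near that share. In bulk tissue, fewer cells of a type and less RNA per cell cannot be told apart.

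Reperfused hearts had 415 genes at higher levels (2.72% of all tested) and 206 genes at lower levels (1.35%). Without adjustment, 2520 genes had a p under 0.05, of which 1263 were higher and 1257 lower in IR hearts, where 762 would be expected from the threshold alone. The rises were the larger changes. Fold changes are given throughout as differences of log2(FPKM + 1), IR minus non-IR, with the standard error of the limma fit, and this scale understates the change of genes with low FPKM. Adjusted p-values are those of limma with Benjamini-Hochberg adjustment over all tested genes, and a median level over the 6 hearts of a side is followed by its lowest and highest value. The median over the rises was 0.73 (range 0.15 to 6.91), the median over the falls was -0.36 (range -1.85 to -0.13), and the median over all tested genes was 0.004. A change of 1 or more on this scale was reached by 139 rises and by 5 falls. The falls also lay among less abundant transcripts, with a median of 1.29 FPKM over all libraries against 5.68 FPKM for the rises and 3.00 FPKM for all tested genes. Protein coding genes made up 382 of the rises and 176 of the falls. In 340 genes (2.23%) all 6 IR libraries lay above all 6 non-IR libraries, and in 179 genes (1.17%) they all lay below. Among the called genes this separation was complete for 293 of 415 rises and 123 of 206 falls.

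**Figure D1:**
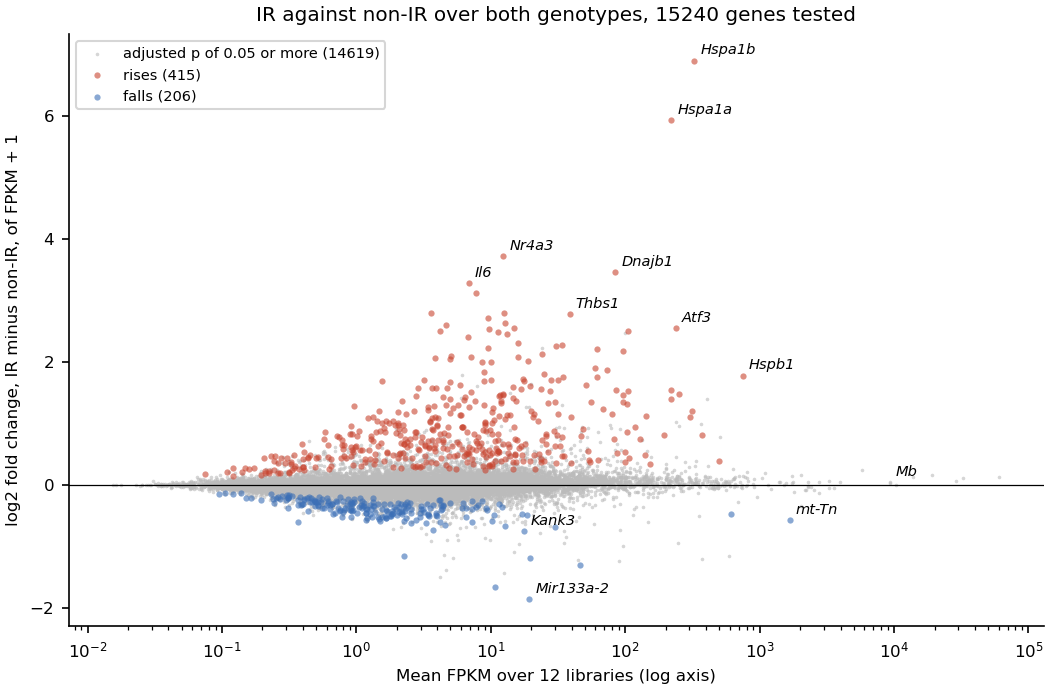
The log2 fold change of FPKM + 1 (vertical axis, IR minus non-IR) is plotted against mean FPKM over 12 libraries (horizontal, log axis) for each of the 15240 tested genes, with the 415 rises in red and the 206 falls in blue. The chaperone genes Hspa1b and Hspa1a stand apart at 6.91 and 5.94, and 5 falls lie at or below -1, among them the loci of miR-133a and the mitochondrial tRNA genes mt-Th and mt-Tg.

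Genes of the HSP70 chaperones rose more than any other tested gene. Hspa1b (chr17:34956436-34959238, minus strand, mm10), which encodes an inducible HSP70, stood at a median of 3.39 FPKM (3.12 to 11.9) in the non-IR hearts and at a median of 632 FPKM (379.9 to 891) in the IR hearts. The mean FPKM of the gene was 135-fold higher after IR (log2 fold change 6.91 ± 0.25, adjusted p = 3.04e-08). Hspa1a (chr17:34969190-34972156, minus strand), its neighbouring copy, went from a median of 4.901 FPKM (3.89 to 10.4) to a median of 369 FPKM (293 to 744), a 71.6-fold difference (5.94 ± 0.22, adjusted p = 3.04e-08). No IR heart came near a non-IR heart for either gene. The 2 genes are near-identical, so that the split of reads between them is uncertain while their joint rise is not affected by it. For Hspa1b the change was 6.90 in C57 and 6.91 in Slit2-Tg hearts. Within the non-IR side, the library Slit2-non-IR replicate 2 held the highest Hspa1b level, 11.9 FPKM, where the other 5 lay between 3.12 and 3.60 FPKM.

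Of 15 tested genes of the HSP70 and HSP110 family, 6 rose and 1 fell, with a median change of 0.38. This list and those below were chosen with earlier results of these data known. Their shares of calls are partly fixed by that choice. Hsph1, an HSP110 that recharges HSP70 with nucleotide, rose from a median of 7.27 FPKM (6.21 to 8.58) to a median of 27.3 FPKM (19.3 to 34.7), a change of 1.73 ± 0.14 (adjusted p = 0.000104). Hspa8, the constitutive cytosolic HSP70, was high in non-IR hearts, at a median of 257 FPKM (246 to 315), and reached a median of 518 FPKM (337 to 533), a change of 0.82 ± 0.12 (adjusted p = 0.00228). Hspa5, the HSP70 of the endoplasmic reticulum, rose by 0.75 ± 0.10 (adjusted p = 0.00144), and Hspa2 by 0.95 ± 0.16 (adjusted p = 0.00561). For these 4 genes too, the IR and the non-IR libraries did not overlap. The fall was that of Hspa12b, a distant family member of endothelial cells, with a median of 19.7 FPKM (16.4 to 25.2) against a median of 14.8 FPKM (11.5 to 16.8), a change of -0.47 ± 0.11 (adjusted p = 0.0342). Its groups overlapped, and its call held in 5 of the 12 fits that each left out 1 library. The mitochondrial member Hspa9 was not among the calls.

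The co-chaperones that feed HSP70 and the HSP90 system moved in the same direction. Of 17 tested J-domain genes, 5 rose and none fell (median 0.14). Dnajb1, the main cytosolic partner of inducible HSP70, rose from a median of 10.8 FPKM (9.82 to 18.8) to a median of 137 FPKM (87.6 to 279.5), a change of 3.47 ± 0.26 (adjusted p = 5.88e-05), a 12.8-fold difference of mean FPKM. Dnaja1 rose from a median of 10.03 FPKM (9.12 to 20.02) to a median of 38.1 FPKM (21.9 to 50.7), a change of 1.57 ± 0.21 (adjusted p = 0.00145). Here again Slit2-non-IR replicate 2 was the highest non-IR library, at 20.02 FPKM against at most 10.5 FPKM in the others, and it stayed below every IR library. Dnajb4 and Dnaja4 rose by 1.04 ± 0.19 and 0.81 ± 0.12 (adjusted p = 0.00831 and 0.00321). The fifth call, Dnajb9, of the endoplasmic reticulum, rose by 0.51 ± 0.13 (adjusted p = 0.0473), and held in 3 of the 12 fits with 1 library left out.

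In the list of HSP90, small heat shock proteins, chaperonins and co-chaperones, 8 of 28 tested genes rose and none fell (median 0.24). Hsp90aa1, the inducible cytosolic HSP90, went from a median of 30.6 FPKM (28.999 to 43.6) to a median of 159.6 FPKM (98.5 to 229.9), a change of 2.19 ± 0.19 (adjusted p = 0.000106). Hspb1, a small heat shock protein that binds unfolding clients and actin, was abundant at a median of 323 FPKM (249 to 509) and reached a median of 1146 FPKM (835 to 1706), a change of 1.78 ± 0.21 (adjusted p = 0.00077). Bag3, which couples HSP70 to small heat shock proteins in muscle, rose by 0.87 ± 0.15 (adjusted p = 0.00711). None of these 3 genes showed overlap between the groups. The other 5 rises, Hsp90ab1, Hsp90b1, Hspd1, Hspe1 and Stip1, were smaller, at 0.40, 0.56, 0.34, 0.45 and 0.38, and their calls held in 2 to 7 of the 12 fits with 1 library left out. With any library other than C57-non-IR replicate 3 and C57-IR replicate 1 left out, the list had 3 to 5 rises, with the lowest count without C57-non-IR replicate 2 and without either replicate 2 or 3 of Slit2-non-IR. Hsp90aa1, Hspb1 and Bag3 were called in each of the 12 fits. Slit2-non-IR replicate 2 held the highest non-IR value for 7 of the 19 chaperone genes that rose, C57-non-IR replicate 3 for 5 and C57-non-IR replicate 1 for 4. Without Slit2-non-IR replicate 2 the changes of Hspa1b and Dnaja1 were 7.14 and 1.72.

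The start regions of the chaperone genes were searched on both strands for GAANNTTC, the inverted pair of units of the heat shock element to which heat shock factor binds, in windows from 250 bases before to 50 bases after the start (RefSeq, GRCm38.p6). The match was present in 9 of the 16 chaperone genes that rose and have a window (19 rose in all), in 6 of 32 chaperone genes that were not called, and in 714 of the 10316 tested coding genes with a window, or 6.92%. A match is a description of the letters and not a bound site. The stretches of 60 bases that hold the match are shown for 4 of the 9 genes, with the match in capitals, 5′ to 3′ on the strand of the gene, because they show the match in the genes of inducible HSP70, of a small heat shock protein and of a J-domain partner.
Hspa1a (chr17:34972222-34972281, minus strand): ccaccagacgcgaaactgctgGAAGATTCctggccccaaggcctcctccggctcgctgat
Hspa1b (chr17:34959304-34959363, minus strand): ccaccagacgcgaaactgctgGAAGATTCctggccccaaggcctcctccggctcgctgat
Hspb1 (chr5:135887784-135887843, plus strand): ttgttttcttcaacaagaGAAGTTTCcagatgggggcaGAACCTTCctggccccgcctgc
Dnaja1 (chr4:40722323-40722382, plus strand): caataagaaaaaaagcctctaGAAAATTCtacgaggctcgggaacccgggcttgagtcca
The stretches of Hspa1a and Hspa1b read the same letters, and their whole windows of 300 bases were identical at 296 positions. Both copies are counted among the 9. Counted from the start, the match begins at position -104 in both copies, at -117 for the first of the 2 in Hspb1 and at -124 in Dnaja1. Over all called genes the match stood in 27 of 283 rises (9.54%) and 17 of 147 falls (11.6%) with a window. A window was available for 74.1% of the coding genes that rose and 77.4% of those tested. Among chaperone genes it was available for 84.2% of those that rose and 80% of those not called. Neither comparison of shares was tested.

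Of 30 tested genes in a list of immediate early factors, 20 rose and none fell (median 1.16). Not all of them encode transcription factors, Arc being an exception. The NR4A orphan nuclear receptors rose together. Nr4a3 went from a median of 0.721 FPKM (0.554 to 0.971) to a median of 22.1 FPKM (13.3 to 37.7), a 31.99-fold difference of mean FPKM (3.72 ± 0.24, adjusted p = 1.35e-05). Nr4a2 went from a median of 2.896 FPKM (1.35 to 3.93) to a median of 13.5 FPKM (9.99 to 20.4), a change of 1.995 ± 0.22 (adjusted p = 0.000575). Nr4a1 was far more abundant in non-IR hearts, at a median of 117 FPKM (54.7 to 156), and reached a median of 310.2 FPKM (235 to 440.3), a change of 1.54 ± 0.25 (adjusted p = 0.00403). In all 3 genes the lowest IR heart lay above the highest non-IR heart.

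The AP-1 and ATF members did not move evenly. Atf3, a stress-induced repressor of the ATF family, rose from a median of 65.8 FPKM (45.9 to 78.4) to a median of 339 FPKM (242 to 656), a change of 2.55 ± 0.25 (adjusted p = 0.000258). Fosl2, a late FOS relative, rose from a median of 5.55 FPKM (3.97 to 6.79) to a median of 25.7 FPKM (16.7 to 35.7), a change of 2.08 ± 0.18 (adjusted p = 0.000146). Jun and Junb were already high in the perfused hearts and rose by 1.100 ± 0.17 and 1.48 ± 0.31 (adjusted p = 0.00321 and 0.0191). Fos itself missed the threshold, with a median of 231 FPKM (132 to 359) against a median of 430.1 FPKM (342 to 689) and overlapping groups, a change of 0.99 ± 0.26 (adjusted p = 0.0548). Myc, a growth-associated factor, rose from a median of 2.53 FPKM (1.21 to 3.77) to a median of 17.4 FPKM (10.9 to 35.8), a change of 2.48 ± 0.29 (adjusted p = 0.00077). Arc, better known from neurons, rose by 2.46 ± 0.28, Maff, a small MAF factor, by 2.26 ± 0.32, and Egr1, a zinc finger factor induced by serum, by 1.397 ± 0.24 (adjusted p = 0.000716, 0.00201 and 0.00644). Of the rest, Csrnp1, Ier5, Fosl1, Mafk and Egr2 rose by 1.81 ± 0.28, 1.24 ± 0.24, 1.23 ± 0.20, 1.15 ± 0.20 and 1.37 ± 0.27 with calls in all 12 fits that left out a library, and Egr4 went from 0 to 2 reads to 6 to 36 reads per library. Srf, the serum response factor that drives many of these genes, rose by 0.47 ± 0.10 (adjusted p = 0.0189), a call lost without C57-IR replicate 2. Fosb and Egr3 rose by 1.16 ± 0.28 and 1.16 ± 0.28, with calls in 6 and 5 of the 12 fits. Across these fits the list kept 17 to 23 rises.

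**Figure D2:**
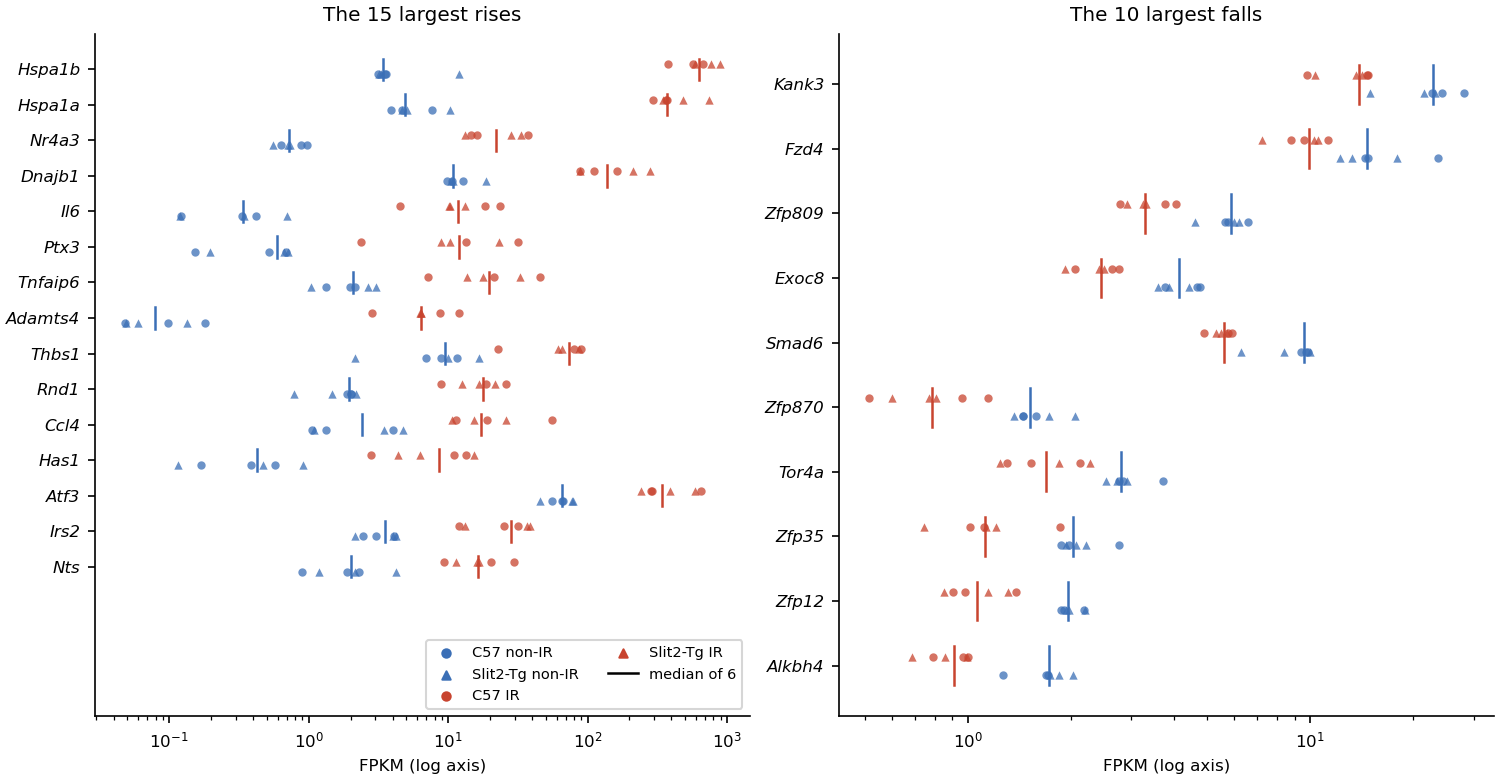
FPKM of each library (log axis) is shown for the 15 coding genes with the largest rises (left) and the 10 with the largest falls (right) among genes whose 6 IR (red) and 6 non-IR (blue) libraries do not overlap, with circles for C57, triangles for Slit2-Tg hearts and a bar at the median of 6. The red and blue points of a gene are separated in each row, by a ratio of means of 135 for Hspa1b and 71.6 for Hspa1a, and by 1.62 (Smad6) to 2.01 (Zfp870) for the falls.

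In a list of feedback regulators of such signals, 17 of 30 tested genes rose and none fell (median 0.80, 13 to 19 rises with a library left out). The list is mixed, and not every member is an inhibitor. Tnfaip3 encodes A20, a ubiquitin-editing inhibitor of NF-kB, and rose from a median of 0.878 FPKM (0.642 to 1.25) to a median of 5.57 FPKM (3.22 to 7.08), a change of 1.71 ± 0.16 (adjusted p = 0.00018). Of the MAP kinase phosphatases, Dusp5 rose by 1.37 ± 0.16, Dusp4 by 0.90 ± 0.10 and Dusp8 by 0.94 ± 0.13 (adjusted p = 0.00077, 0.000716 and 0.00201). Dusp2, Dusp14 and Dusp10 rose by 1.04 ± 0.18, 0.29 ± 0.05 and 0.86 ± 0.19, the last with a call in 6 of the 12 fits with a library left out. Pim1, a kinase induced by cytokines, and Rgs16, which speeds G protein shut-off, rose by 1.72 ± 0.24 and 1.63 ± 0.27 (adjusted p = 0.00218 and 0.00539). The Sprouty genes Spry2 and Spry4, inhibitors of growth factor signaling, rose by 0.55 ± 0.11 and 0.66 ± 0.16, with calls in 12 and 3 of those fits. Socs3, a brake on cytokine receptor signaling, rose from a median of 22.1 FPKM (7.77 to 32.03) to a median of 93.5 FPKM (57.1 to 167), a change of 2.22 ± 0.33 (adjusted p = 0.00264). Nfkbia, an inhibitor of NF-kB, had overlapping groups and did not pass (0.93 ± 0.32, adjusted p = 0.15). Its relatives Nfkbie, Nfkbid and Nfkbiz, which do not all act as inhibitors, rose by 1.03 ± 0.15, 1.46 ± 0.22 and 1.46 ± 0.25 (adjusted p = 0.00218, 0.00275 and 0.00624). The subunits of NF-kB were looked up after these values had been seen. Relb, Nfkb2, Rela and Rel rose by 0.78 ± 0.11, 0.64 ± 0.10, 0.67 ± 0.11 and 0.66 ± 0.14 (adjusted p = 0.00227, 0.00302, 0.00476 and 0.0196), and Nfkb1 did not pass (0.12 ± 0.06, adjusted p = 0.364). All 4 rises held with each library left out.

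Among growth arrest genes and targets of p53, 7 of 16 rose and none fell (median 0.64). They were the 3 Gadd45 stress sensors, the kinases Plk2 and Plk3, Pmaip1, which encodes the cell death protein NOXA, and Ppp1r15a, a phosphatase subunit of the integrated stress response. Plk3, Ppp1r15a, Plk2 and Gadd45a rose by 1.45 ± 0.26, 1.77 ± 0.30, 0.87 ± 0.16 and 0.83 ± 0.17. Gadd45g went from a median of 31.9 FPKM (18.5 to 36.9) to a median of 177 FPKM (83.3 to 286), a change of 2.51 ± 0.27 (adjusted p = 0.000575), and Gadd45b from a median of 10.9 FPKM (4.004 to 15.1) to a median of 48.4 FPKM (26.3 to 104), a change of 2.27 ± 0.35 (adjusted p = 0.00321). Pmaip1 was low in both groups and separated, at a median of 0.284 FPKM (0.244 to 0.358) against a median of 1.595 FPKM (0.909 to 2.18), a change of 0.95 ± 0.11 (adjusted p = 0.00077). Cdkn1a, the classical p53 target p21, varied widely, with a median of 17.3 FPKM (6.31 to 31.6) against a median of 48.8 FPKM (18.5 to 79.2), a change of 1.31 ± 0.39 (adjusted p = 0.0888), and did not pass.

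A list of 31 genes held cytokines and chemokines, some of their receptors and a few related genes such as Ptgs2. Of these 28 could be tested, and 14 of them rose while none fell (median 0.71, 11 to 16 rises with a library left out). Il6, an acute phase cytokine, went from a median of 0.337 FPKM (0.119 to 0.696) to a median of 11.8 FPKM (4.51 to 23.5), a 39.5-fold difference (3.29 ± 0.29, adjusted p = 0.000151). Tnf rose from a median of 2.02 FPKM (1.07 to 2.46) to a median of 9.18 FPKM (6.89 to 27.5), a change of 2.09 ± 0.29 (adjusted p = 0.00201). Lif, a cytokine of the IL-6 family, rose by 0.80 ± 0.10 (adjusted p = 0.00096). The monocyte attractants Ccl3 and Ccl4 rose by 2.32 ± 0.32 and 2.63 ± 0.41, and the neutrophil attractants Cxcl1 and Cxcl2 by 2.14 ± 0.39 and 2.24 ± 0.37 (adjusted p = 0.00201, 0.00321, 0.00833 and 0.00516). Cxcl10, a ligand of the interferon-induced kind, went from a median of 0.149 FPKM (0.0428 to 0.205) to a median of 2.59 FPKM (1.35 to 6.23), a change of 1.69 ± 0.23 (adjusted p = 0.00159). Each of the genes given here separated the IR from the non-IR hearts. Ptgs2, the inducible cyclooxygenase, rose by 1.52 ± 0.26 (adjusted p = 0.00544) with overlapping groups. Ccl7 and Ccl2, monocyte attractants, rose by 1.76 ± 0.31 and 1.71 ± 0.37, Ccl11, which draws eosinophils, by 1.296 ± 0.29, Il1a by 0.67 ± 0.13 and Csf1, the macrophage growth factor, by 0.39 ± 0.10. The calls of Ccl7 and Il1a held in 12 and 12 of the 12 fits with a library left out, and those of Ccl2, Ccl11 and Csf1 in 8, 6 and 2. Il1b was not resolved, with a median of 2.202 FPKM (0.7697 to 4.07) against a median of 4.32 FPKM (3.06 to 9.91), a change of 0.91 ± 0.30 (adjusted p = 0.126).

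Leukocyte markers were not called beside these cytokines, which for lists this short is near the share of all tested genes. The summed level of 10 macrophage genes ran from 270 to 525 FPKM in non-IR and from 233 to 523 FPKM in IR hearts, with Lyz2 as the most abundant and no gene called. The 10 neutrophil genes summed to 1.42 to 3.99 FPKM and 1.17 to 4.65 FPKM, with Lcn2 as the most abundant, 3 of them tested and none called, and the sum of 10 lymphocyte genes did not exceed 0.878 FPKM in any library. Red cell genes summed to 4.53 to 49.0 FPKM in non-IR and to 1.47 to 12.9 FPKM in IR hearts (two-sided exact permutation within genotype, p = 0.045, adjusted over 13 marker lists 0.293), and their part in the results was not tested.

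Of 26 genes of endothelial activation and hemostasis, 10 rose and none fell (median 0.35, 9 to 11 rises with a library left out). Sele, the E-selectin that slows rolling leukocytes, went from a median of 0.4301 FPKM (0.166 to 0.638) to a median of 6.59 FPKM (3.54 to 13.5), a change of 2.51 ± 0.27 (adjusted p = 0.000575). Icam1, to which leukocytes then adhere, rose from a median of 3.78 FPKM (2.59 to 5.94) to a median of 15.4 FPKM (7.39 to 27.2), a change of 1.703 ± 0.25 (adjusted p = 0.00228). Selp, the platelet and endothelial selectin, rose by 1.28 ± 0.20 (adjusted p = 0.00377). Vcam1 overlapped between groups and did not pass (0.79 ± 0.21, adjusted p = 0.062). Genes of plasminogen activation rose: Plau, the urokinase gene, by 1.44 ± 0.18 and its receptor Plaur by 2.41 ± 0.23 (adjusted p = 0.000984 and 0.000257). Plat, the tissue activator, rose by 0.58 ± 0.15, but its call held in 1 of the 12 fits with a library left out. Apold1, an early response gene of endothelium, and Procr, the receptor of protein C, rose by 1.87 ± 0.29 and 0.93 ± 0.15 (adjusted p = 0.00354 and 0.00384). Thbs1, a matrix protein that inhibits vessel growth, went from a median of 9.45 FPKM (2.14 to 16.7) to a median of 73.1 FPKM (22.7 to 89.6), a change of 2.78 ± 0.42 (adjusted p = 0.00291). Its lowest IR value came from C57-IR replicate 1, where the other 5 IR hearts lay between 61.4 and 89.6 FPKM. None of 10 endothelial identity markers was called, which is near the share of all tested genes. They summed to 303 to 512 FPKM in non-IR and 306 to 533 FPKM in IR hearts.

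Of 23 tested matrix and growth factor genes, 11 rose and none fell (median 0.51, 9 to 15 rises with a library left out). Adamts4, a protease of the proteoglycan aggrecan and its relatives, was low in the perfused hearts, at a median of 0.0789 FPKM (0.0482 to 0.1802), and reached a median of 6.396 FPKM (2.84 to 11.96), a change of 2.798 ± 0.22 (adjusted p = 7.8e-05). In reads, this was 5 to 15 per non-IR library against 238 to 1135 per IR library. Adamts1, a protease of the same family, rose from a median of 24.6 FPKM (13.7 to 32.8) to a median of 83.3 FPKM (61.5 to 138), a change of 1.898 ± 0.25 (adjusted p = 0.00151). The hyaluronan synthases Has1 and Has2 rose by 2.61 ± 0.33 and 0.74 ± 0.12, and Tnfaip6, which links hyaluronan to heavy chains, by 2.81 ± 0.36 (adjusted p = 0.00131, 0.00498 and 0.00136). Hyal2, a hyaluronidase on no list, fell (-0.35 ± 0.08, adjusted p = 0.0309) with overlapping groups. Ptx3, a pentraxin also on no list, went from a median of 0.591 FPKM (0.153 to 0.711) to a median of 11.9 FPKM (2.37 to 31.6), a change of 3.12 ± 0.44 (adjusted p = 0.00201). Hbegf, Bmp2, Gdf15 and Cyr61, which encode secreted signals, rose by 1.57 ± 0.22, 1.197 ± 0.17, 1.57 ± 0.24 and 1.21 ± 0.19 (adjusted p = 0.00227, 0.00239, 0.00336 and 0.00336). Ctgf and Tnc, matrix proteins of injured tissue, rose by 1.35 ± 0.30 and 0.23 ± 0.06, with calls in 7 and 2 of the 12 fits. Of 35 collagen genes 1 was called, a share near that of all tested genes (Col5a1, 0.50 ± 0.11, adjusted p = 0.023). That count rested on C57-IR replicate 1, without which 10 collagen genes were called, and 0 to 2 with any other library left out.

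Further large rises lay outside the lists. Rnd1, a small GTP-binding protein that loosens the actin cytoskeleton, went from a median of 1.95 FPKM (0.7798 to 2.18) to a median of 17.7 FPKM (8.92 to 26.2), a change of 2.71 ± 0.23 (adjusted p = 0.000104). Irs2, an adaptor of insulin signaling, went from a median of 3.52 FPKM (2.15 to 4.24) to a median of 28.5 FPKM (11.9 to 38.4), a change of 2.55 ± 0.29 (adjusted p = 0.000662). Nts, the precursor of the vasoactive peptide neurotensin, went from a median of 2.02 FPKM (0.894 to 4.203) to a median of 16.4 FPKM (9.41 to 29.6), a change of 2.54 ± 0.28 (adjusted p = 0.000662). None of the 3 overlapped. The epithelial keratins Krt8 and Krt18, here in a list of mesothelial markers, rose from a median of 0.0819 FPKM (0.0257 to 0.224) to a median of 1.25 FPKM (0.423 to 1.32) and by 0.73 ± 0.12 (adjusted p = 0.00139 and 0.00476). The other 6 tested mesothelial markers were not called, and the summed list ran from 1.02 to 5.24 FPKM against 3.32 to 8.23 FPKM (exact permutation p = 0.025, adjusted 0.293).

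**Figure D3:**
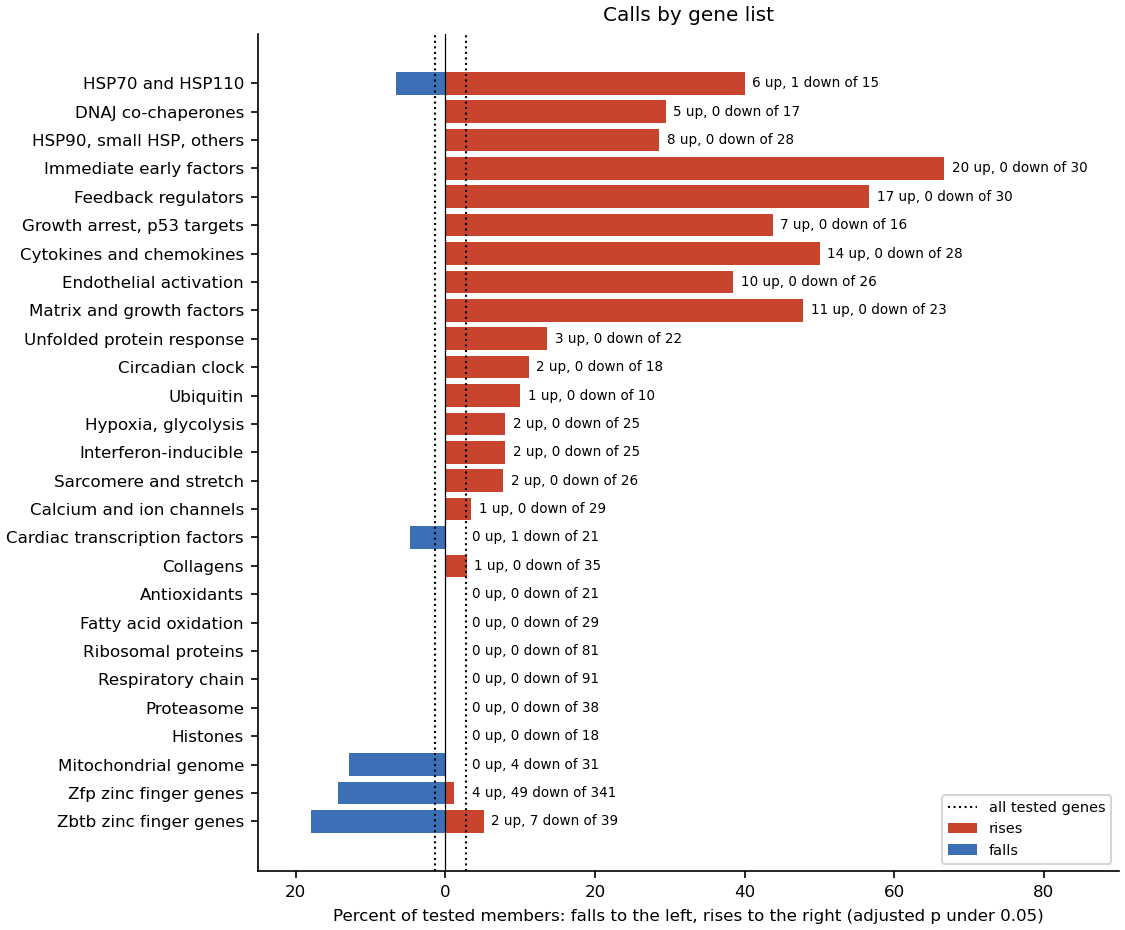
Bars give, for each gene list, the percent of its tested members that rose (red, to the right) or fell (blue, to the left) at an adjusted p under 0.05, with the counts beside them, and dotted lines mark 2.72% rises and 1.35% falls over all tested genes. The lists of chaperones, immediate early and feedback genes, growth arrest, cytokines, endothelial activation and matrix reach 28.6% to 66.7% rises, the unfolded protein response and interferon lists 13.6% and 8%, and the antioxidant, respiratory chain, ribosomal protein, proteasome and fatty acid oxidation lists have no call. The lists were chosen with earlier results of these data known, so that a high share is partly fixed by that choice.

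Several further lists gave few or no calls. No gene was called among 91 of the respiratory chain (median 0.00), 81 ribosomal proteins (median 0.11), 38 proteasome subunits (median 0.02), 29 genes of fatty acid oxidation (median 0.02), 21 antioxidants (median 0.10) and 18 histones (median -0.04). Only these 18 of 70 histone genes could be tested. Over all tested genes 4.07% were called, so that no call in the lists of 29, 21 and 18 genes is near that share. With 1 library left out, the respiratory chain and proteasome lists still had no call, the antioxidants had 2 rises without Slit2-non-IR replicate 2 and at most 1 otherwise, and the other 3 lists had at most 1 call in a direction. Among 26 sarcomere and stretch genes only Xirp1, a protein of the intercalated disc, and Rcan1, an inhibitor of calcineurin, rose (1.35 ± 0.27 and 1.12 ± 0.18, adjusted p = 0.014 and 0.00384). Among 25 genes of hypoxia and glycolysis the 2 rises were Pfkfb3, an activator of glycolysis, and Slc2a1, the basal glucose transporter (1.04 ± 0.19 and 0.58 ± 0.12, adjusted p = 0.00891 and 0.0217). The call of Slc2a1 held in 7 of the 12 fits with 1 library left out. Among 29 ion channel and calcium genes, Gja1, the main connexin of ventricular muscle, was the 1 call (0.64 ± 0.15, adjusted p = 0.0385). It held in 5 of the 12 fits, and the share of calls in this list was near that of all tested genes. The count for hypoxia and glycolysis was 1 to 3. Of 18 clock genes the repressors Bhlhe40 and Nfil3 rose (1.54 ± 0.14 and 1.42 ± 0.24, adjusted p = 0.000197 and 0.0059), and of 25 interferon-inducible genes the factors Irf1 and Irf8 (1.37 ± 0.19 and 0.82 ± 0.11, adjusted p = 0.00181 and 0.00201). In the list of ubiquitin genes 1 of 10 rose, the ligase gene Rnf122 (0.43 ± 0.06, adjusted p = 0.00254).

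The count for the list of the unfolded protein and integrated stress responses depended on 1 library. With all 12 libraries 3 of 22 genes rose (median 0.37): Trib1, a pseudokinase that scaffolds protein degradation, Manf, a secreted factor of the endoplasmic reticulum, and Calr, its calcium-binding chaperone (1.26 ± 0.23, 0.74 ± 0.15 and 0.53 ± 0.12, adjusted p = 0.0088, 0.0143 and 0.0305). Without C57-IR replicate 1 the count was 11, and with any other library left out it was 2 to 4. Hspa5 and Dnajb9 of the endoplasmic reticulum and Ppp1r15a of the integrated stress response also rose, but are counted in other lists.

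Among the 10 largest falls of coding genes without overlap were Kank3, Fzd4 and Smad6. Kank3, an adaptor of the actin cytoskeleton that is expressed in endothelium, fell from a median of 22.9 FPKM (14.9 to 28.1) to a median of 13.9 FPKM (9.76 to 14.8), a change of -0.75 ± 0.14 (adjusted p = 0.00906). Smad6, an inhibitor of BMP signaling, fell from a median of 9.58 FPKM (6.29 to 9.98) to a median of 5.603 FPKM (4.898 to 5.899), a change of -0.60 ± 0.09 (adjusted p = 0.00384). Fzd4, a Wnt and norrin receptor of vessels, fell from a median of 14.6 FPKM (12.3 to 23.6) to a median of 9.91 FPKM (7.22 to 11.3), a change of -0.66 ± 0.14 (adjusted p = 0.0213). The IR hearts lay below every non-IR heart in all 3 genes, by a ratio of mean FPKM of 1.74, 1.62 and 1.67. The call of Fzd4 was lost without Slit2-non-IR replicate 3, C57-IR replicate 2 or Slit2-IR replicate 1 (adjusted p of 0.0527 to 0.0596). Sox18, an endothelial transcription factor, had a median of 37.9 FPKM (28.4 to 46.1) against a median of 22.6 FPKM (16.2 to 32.7), a change of -0.69 ± 0.17 (adjusted p = 0.0473) and kept its call in 1 of the 12 fits. It was the 1 call among 21 cardiac transcription factors, a list with 0 to 2 falls when a library was left out.

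Genes of zinc finger proteins, grouped by name after the values had been seen, made up 49 of the 206 falls. Of 341 tested genes whose symbol begins with Zfp, a mixed class that is dominated by DNA-binding repressors of the C2H2 type, 49 fell and 4 rose (median -0.12), so that 14.4% were falls against 1.35% of all tested genes. The count of falls was 30 to 64 with 1 library left out, and was under 33 without C57-non-IR replicate 3 (31), C57-IR replicate 2 (30) or Slit2-IR replicate 1 (32). Zfp809, which recruits silencing to proviral DNA, fell from a median of 5.86 FPKM (4.62 to 6.57) to a median of 3.29 FPKM (2.79 to 4.07), a change of -0.64 ± 0.09 (adjusted p = 0.00191). Zfp12 fell from a median of 1.96 FPKM (1.87 to 2.205) to a median of 1.07 FPKM (0.855 to 1.38), a change of -0.53 ± 0.07 (adjusted p = 0.00201). Zfp35 fell from a median of 2.03 FPKM (1.87 to 2.76) to a median of 1.13 FPKM (0.745 to 1.86), a change of -0.54 ± 0.10 (adjusted p = 0.0127), and Zfp870 from a median of 1.52 FPKM (1.36 to 2.05) to a median of 0.787 FPKM (0.514 to 1.15), a change of -0.54 ± 0.09 (adjusted p = 0.00644). In each of these the groups did not overlap. Among the 4 rises, Zfp948 rose by 0.85 ± 0.13 (adjusted p = 0.00282), and Zfp36 and Zfp36l1 encode RNA-binding proteins of another kind that destabilise cytokine messages (1.33 ± 0.30 and 0.78 ± 0.17, adjusted p = 0.0277 and 0.0261). The calls of these last 2 held in 7 and 5 of the 12 fits. The fourth rise was Zfp977 (0.25 ± 0.05, adjusted p = 0.0246), and the count of rises was 1 to 6 with a library left out. The BTB zinc finger genes named Zbtb, also grouped after the fact, had 7 falls and 2 rises among 39 (median -0.13), with 4 to 8 falls when a library was left out and 4 without replicate 1 or 2 of Slit2-non-IR or replicate 2 of either IR group.

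Several other coding genes fell with complete separation. Exoc8, a subunit of the exocyst that tethers vesicles, fell from a median of 4.14 FPKM (3.602 to 4.76) to a median of 2.45 FPKM (1.92 to 2.76), a change of -0.62 ± 0.08 (adjusted p = 0.00159). Alkbh4, a demethylase that acts on actin, fell from a median of 1.73 FPKM (1.27 to 2.03) to a median of 0.914 FPKM (0.687 to 1.001), a change of -0.53 ± 0.07 (adjusted p = 0.00201). Tor4a, a torsin ATPase, fell from a median of 2.81 FPKM (2.54 to 3.73) to a median of 1.69 FPKM (1.24 to 2.27), a change of -0.54 ± 0.11 (adjusted p = 0.017). All 3 calls held with each library left out.

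Genes not annotated as protein coding made up 33 rises and 30 falls, of which 10 are transcripts without a gene type. The locus of miR-212 and miR-132, a pair of microRNAs that are cut from one transcript, was among the rises. The mature microRNAs of this locus (RefSeq, GRCm38.p6, plus strand of chromosome 11) are shown because they share their seed, bases 2 to 8, in capitals.
mmu-miR-212-3p (chr11:75173443-75173464): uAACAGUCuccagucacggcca
mmu-miR-132-3p (chr11:75173723-75173744): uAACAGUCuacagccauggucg
Mir212 had 0 to 4 reads per non-IR library and 7 to 21 reads per IR library (2.07 ± 0.29, adjusted p = 0.00208). Mir132 was below the filter, with 4 reads in all non-IR and 26 reads in all IR libraries. The transcript 1700016P03Rik, which spans both, had 5 to 11 reads per non-IR library and 16 to 68 reads per IR library and was called as a rise. These libraries were not made from small RNA, so that the reads measure the transcribed locus and not the mature microRNA.

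Both loci of the muscle microRNA miR-133a fell. Mir133a-2 had 44 to 114 reads per non-IR library and 8 to 43 per IR library (-1.85 ± 0.36, adjusted p = 0.0123), the largest fall of all. Mir133a-1 had 7 to 38 against 3 to 8 reads (-1.66 ± 0.40, adjusted p = 0.0409), and its call held in 3 of the 12 fits. F630028O10Rik, a transcript on the X chromosome that spans the myeloid microRNA locus Mir223 and is annotated as antisense, fell from 29 to 58 reads to 0 to 14 reads per library (-0.60 ± 0.08, adjusted p = 0.00131), while Mir223 itself had no reads in any library. For Mir212, Mir133a-2 and F630028O10Rik the groups did not overlap.

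Of 31 tested transcripts of the mitochondrial genome, 4 fell, all of them transfer RNA genes (median over the 31 transcripts -0.13). This was 12.9%, against 1.35% of all tested genes. These genes are short, mt-Th being 67 bases long, and the libraries were not made from small RNA. The reads therefore need not measure the mature transfer RNA. The histidine tRNA gene mt-Th fell from a median of 58.9 FPKM (52.6 to 85.9) to a median of 20.5 FPKM (14.3 to 70.98), a change of -1.29 ± 0.27 (adjusted p = 0.0179), with overlapping groups. In Slit2-Tg hearts the change was -1.77 and in C57 hearts -0.82. The others were mt-Tn, mt-Ty and mt-Tg, with -0.57 ± 0.13, -0.47 ± 0.11 and -1.19 ± 0.30 (adjusted p = 0.0311, 0.0381 and 0.0443). Only mt-Th was called in all 12 fits with 1 library left out, and the count of falls was 1 when any of the 6 Slit2-Tg libraries and 2 when C57-IR replicate 3 was left out. The lncRNA Gm26917 and the pseudogenes Gm15542 and Hsp25-ps1 rose by 2.005 ± 0.34, 1.304 ± 0.19 and 0.98 ± 0.19 (adjusted p = 0.00544, 0.00266 and 0.0132), and the pseudogenes may share reads with their parent genes.

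The gene models of the called genes differed from those of all tested genes at the median. Coding genes that rose had a median of 6 exons and those that fell 5, where all tested coding genes had 9. Genes with 3 exons or fewer made up 24.1% of the rises and 27.8% of the falls against 12.4% of all, and 35.4% of the falls that are not Zfp genes. The median genomic span was 14476 bases for rises, 14843 bases for falls and 24577 bases for all. For rises of 1 or more on the log2 scale, 35.6% had 3 exons or fewer and the median span was 8302 bases. These are descriptions of gene models, which were not tested.

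Genotype entered the comparison as an additive term, and no gene was resolved as responding differently in Slit2-Tg hearts. The interaction of IR and genotype gave 0 genes at an adjusted p under 0.05 in limma, with 284 genes at an unadjusted p under 0.05 (1.86%), of which 4 were among the 621 called genes. In single-genotype contrasts, which share a variance estimate per gene over all 12 libraries, C57 hearts called 70 genes (0.459%, 62 rises and 8 falls). Slit2-Tg hearts called 80 (0.525%, 68 rises and 12 falls). Fits of only the 6 libraries of a genotype called 9 genes in C57 and 60 in Slit2-Tg hearts. The counts of 70 and 80 moved with single libraries. They ran from 3 (without C57-non-IR replicate 2 or 3 or C57-IR replicate 3) to 254 (without C57-IR replicate 1) in C57 hearts, and from 4 (without Slit2-IR replicate 2) to 180 (without C57-IR replicate 1) in Slit2-Tg hearts, and the interaction gave 1 gene without Slit2-non-IR replicate 1 or Slit2-IR replicate 3. A block on replicate number, shared by both genotypes, brought the C57 count to 174 (143 rises and 31 falls). It brought the Slit2-Tg count to 202 (163 rises and 39 falls). The hearts of the genotypes are different animals, and each set of calls was looked up in the other. The p-values are not independent, because both contrasts use the same variance estimate of a gene. The share over all tested genes does not allow for this, so the look-up is not an independent replication. Of the 62 rises of C57 hearts, 61 were higher in Slit2-Tg IR hearts at an unadjusted p under 0.05, a condition met by 6.15% of all tested genes. Of the 68 rises of Slit2-Tg hearts, 67 met it in C57 hearts, against 4.55% of all. For the falls, 7 of 8 and 10 of 12 met the same condition in the other genotype, against 5.07% and 4.42% of all. The exceptions among the rises were Gm18194, a pseudogene with 0.58 in C57 and -0.20 in Slit2-Tg hearts, and Trp53, the gene of p53, with -0.03 and 0.58.

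**Figure D4:**
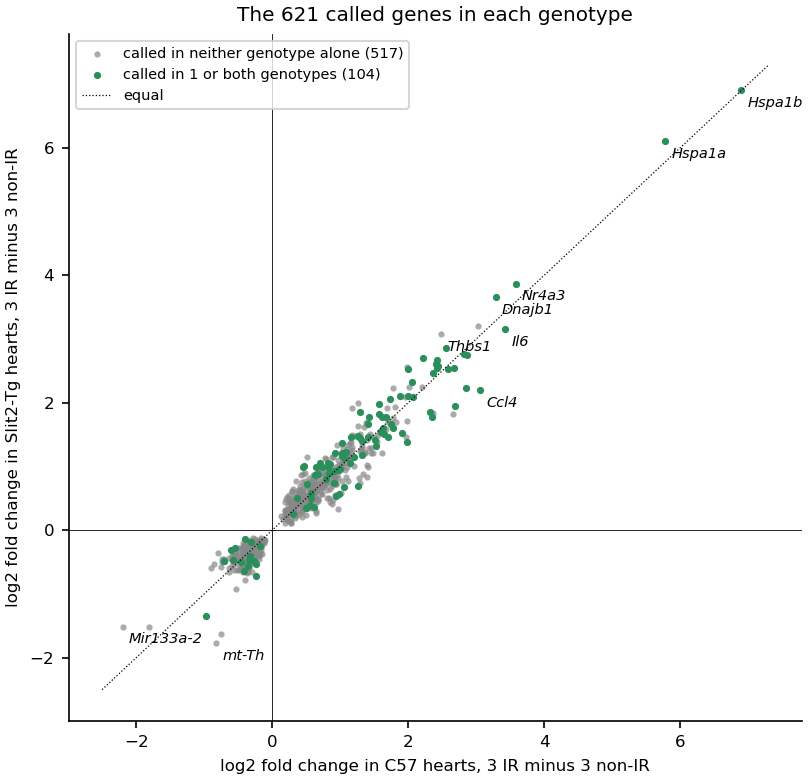
Each point is 1 of the 621 called genes, with its log2 fold change in the 6 C57 hearts (horizontal) and in the 6 Slit2-Tg hearts (vertical), and the dotted line marks equal change. Points lie along that line from Mir133a-2 to Hspa1b. Since the genes were called on both genotypes together, a shared sign is partly fixed by that choice.

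Most calls were not made in either single-genotype contrast. Of the 621 genes 517 were called in neither contrast, 42 in both, 26 in C57 and 36 in Slit2-Tg hearts only. The median standard error of a log2 fold change was 0.0835 in the pooled fit and 0.120 in each genotype. Among the 517 were Ptx3, Thbs1, Gadd45b, Socs3 and Cxcl2, with pooled changes of 3.12, 2.78, 2.27, 2.22 and 2.24, and each of the falls of Kank3, Fzd4, Zfp809 and Exoc8. Guidance receptors and immune genes that the study also measured by other means did not pass in the pooled contrast. The study had picked Slamf7 and Rasgrp1 from these libraries at an unadjusted p under 0.05. It reported no difference in RasGRP1 between groups by quantitative PCR or Western blot. By quantitative PCR it reported Robo2 as unchanged and Robo1 as raised in Slit2-Tg hearts after IR. By the same method it reported Robo4 and Slamf7 as raised by IR in C57 hearts, with the rise blunted in Slit2-Tg hearts. For Slamf7 it reported this also for the protein, by Western blot and immunofluorescence. A contrast pooled over both genotypes does not test whether a rise is blunted in Slit2-Tg hearts. Robo4, an endothelial guidance receptor, had a median of 10.03 FPKM (7.55 to 16.2) against a median of 11.9 FPKM (7.197 to 13.1), a change of 0.05 ± 0.18 (adjusted p = 0.939). Slamf7, a receptor of immune cells, had a median of 0.185 FPKM (0.0513 to 0.224) against a median of 0.469 FPKM (0.194 to 1.52), a change of 0.41 ± 0.14 (adjusted p = 0.144), with changes of 0.62 in C57 and 0.20 in Slit2-Tg hearts. Robo1, Robo2 and Rasgrp1 stood at adjusted p = 0.902, 0.885 and 0.17. Beside the threshold lay Usp27x on the inside (adjusted p = 0.0499) and Utp14b on the outside (0.0505), with changes of 0.26 and 0.24.

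The size of the changes varied among the 6 reperfused hearts. Set against the non-IR mean of its own genotype, the median change over the 415 rises was 0.43, 0.99 and 0.71 in C57-IR replicates 1, 2 and 3 and 0.75, 0.88 and 0.62 in Slit2-IR replicates 1, 2 and 3. C57-IR replicate 1 was the lowest of the 6 IR hearts in 238 of the 415 rises, and C57-IR replicate 2 was the highest in 224. Leaving out C57-IR replicate 1 raised the number of called genes from 621 to 887, and leaving out C57-IR replicate 2 lowered it to 383. Called in every 1 of the 12 fits that left out a library were 259 rises and 84 falls. The rises of Hspa1b, Hspa1a, Nr4a3, Dnajb1, Adamts4 and Il6 were among them.

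**Figure D5:**
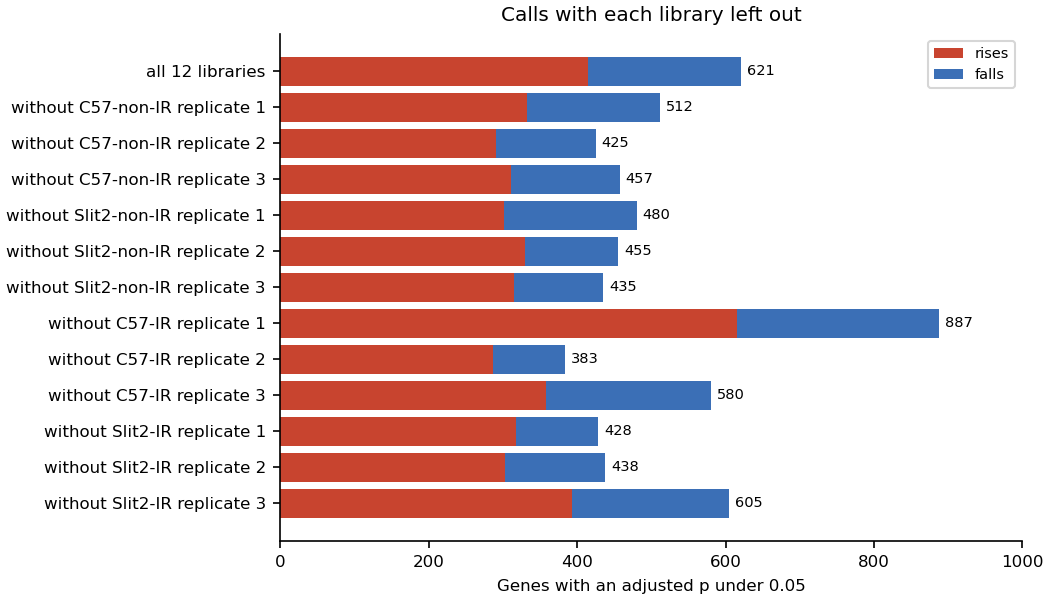
Bars give the number of genes at an adjusted p under 0.05 (rises in red, falls in blue) with all 12 libraries and with each library left out in turn. With a library left out, counts lie between 383 and 605 except for 887 without C57-IR replicate 1, beside 621 with all 12 libraries.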

How the data were processed

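RNA of 12 mouse hearts, 3 for each combination of genotype and perfusion, was sequenced as paired-end reads from libraries made with an NEBNext Ultra kit. The deposited values are FPKM per gene and library, computed by the authors; the submitters' processing notes name HISAT2 and mm10, while the counter, the gene annotation and any strand setting are not given in the sources used here, so that reads of a gene and of an antisense gene cannot be told apart. Groups were read from the library titles, in which the replicates are independent samples of a group. FPKM times gene length rose in equal steps in each library, and 100% of the values came out as whole reads within 0.1 read. On these reads limma-voom called 680 genes.

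For the main test log2(FPKM + 1) was fitted with limma 3.58.1 (R 4.3.3; lmFit and eBayes with trend) with terms for IR and genotype over all 12 libraries. A gene was tested if 3 or more libraries held 10 of its reads after scaling to the library of median depth, and all libraries together 15, and p-values were adjusted by Benjamini-Hochberg at 0.05. Single-genotype contrasts and the interaction came from a 4-group fit. Summed marker levels were compared by an exact permutation within genotype (400 relabelings, smallest p 0.005). The fits were tested on simulated data. Deviations of same-numbered IR and non-IR libraries correlated at 0.295, 0.126 and 0.0833 in C57 hearts. In Slit2-Tg hearts they correlated at 0.291, 0.294 and 0.143. All were positive, and the C57 pair at 0.0833 lay under the 0.1 set for taking the numbers as a pairing. The labels do not say what the numbers share. The main test used no block. As an alternative the number was a term shared by both genotypes, which gave 871 genes in the pooled contrast.

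Genes were named by rule. Named were the 15 largest rises and 10 largest falls among coding genes without overlap, and the 3 largest of each among other gene types. Up to 4 called members per list with the smallest p were named, and the 5 largest of each among coding genes called in neither single-genotype contrast. The genes the study measured by other means were added, and the most abundant gene of a marker list. Other genes were named after their values were seen, and a few named genes are not reported here. The comparison, the lists and the rule were chosen with earlier results of these data known. Alternatives were another pseudocount, other filters, TMM scaling, limma-voom, other terms and blocks, a robust prior, and each library left out.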

Additional observations from a re-analysis of the deposited data

Results flagged for a closer look

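Groups of 6 libraries, IR or non-IR, were searched for a library that stood apart from the other 5 by Dixon's criterion (critical value 0.625). Of 194 groups of 6 tested, 14 met it, where chance flags about 1 in 20, or about 10. Several libraries recurred. Slit2-non-IR replicate 2 was the highest of the perfused hearts for 3 of these transcripts, with Hspa1b at 11.9 FPKM against 3.12 to 3.60 FPKM, Dnaja1 at 20.02 FPKM against 9.12 to 10.5 FPKM and the pseudogene Gm15542 at 4.79 FPKM against 2.15 to 2.95 FPKM. C57-IR replicate 1 was the lowest of the reperfused hearts for Thbs1 (22.7 FPKM against 61.4 to 89.6 FPKM), Hspa5 (121 FPKM against 167 to 175 FPKM) and the fibroblast marker Gsn (452 FPKM against 716 to 784 FPKM). C57-non-IR replicate 1 was the highest of the perfused hearts for Gm26917 (7.78 FPKM against 1.96 to 2.88 FPKM), Mir133a-2 (64.4 FPKM against 19.4 to 30.4 FPKM) and mt-Tn (2817 FPKM against 1644 to 1994 FPKM). The direction of each of these 9 genes did not change when any library was left out.

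Single cases were Tor4a in C57-non-IR replicate 3 (3.73 FPKM against 2.54 to 2.92 FPKM), Gadd45b in Slit2-non-IR replicate 1 (4.004 FPKM against 9.98 to 15.1 FPKM), Mb in Slit2-non-IR replicate 1 (7642 FPKM against 9123 to 9701 FPKM), and murine Slit2 in Slit2-IR replicate 2 (0.813 FPKM against 0.0847 to 0.282 FPKM) and in C57-non-IR replicate 2 (0.222 FPKM against 0.169 to 0.184 FPKM). What set these libraries apart was not tested.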

How the results depend on the processing

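For the pooled contrast (621 genes) every alternative other than leaving out C57-IR replicate 2 stayed within 1.5 times: 646 genes with a pseudocount of 0.1, 420 without a filter (25619 genes tested), 587 with 10 reads in every library, 619 with TMM, 680 with limma-voom, 683 without the genotype term, 532 with the mean of both single-genotype effects, 871 with the replicate number as a block, 712 with the block within genotype and 623 with a robust prior. With 1 library left out the count ran from 383 (without C57-IR replicate 2) to 887. Of these sets, limma-voom shared 590 and the 383 genes shared 373 with the main calls. Of 97 named genes, 78 were called, 67 of these under every alternative, and none changed sign.

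The single-genotype counts were far less stable. For C57 hearts (70 genes) the count was 174 with the replicate block, 9 in a fit of the 6 C57 libraries alone, and 3 to 254 with 1 library left out. For Slit2-Tg hearts (80 genes) it was 202 with the replicate block, 60 in a fit of the 6 libraries alone, and 4 to 180 with 1 library left out. The interaction gave 0 genes in the main fit and under the replicate block (404 genes at an unadjusted p under 0.05), and 0 to 1 with 1 library left out. Leaving out libraries in the single-genotype and interaction fits, and grouping genes by name, were added after the data had been seen. Depth of 16601154 to 24841291 reads limits calls among genes with few reads, such as the microRNA loci. Hearts of a group are separate samples in the labels, and how they were batched is not stated, so a batch shared by IR status cannot be told apart from IR.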

Other observations

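Genes grouped after their values were seen gave further counts. Of 12 tested tubulin genes 4 rose (Tubb6, Tuba1b, Tuba4a and Tuba1c) and none fell (median 0.34); Tubb6, a broadly expressed beta-tubulin, rose by 0.73 ± 0.13 (adjusted p = 0.00777 in limma). Of 43 genes of the Trim family, many of them ubiquitin ligases, 5 fell and 1 rose (median -0.07). Over all tested genes 2.72% rose and 1.35% fell, so that the share of Trim rises, 2.33%, was near that of all genes. With 1 library left out the counts were 1 to 7 rises for tubulins, with 7 without C57-IR replicate 1, and 3 to 6 falls for Trim genes, with 3 without Slit2-non-IR replicate 2 or C57-IR replicate 2.

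The libraries numbered 1 had the lowest macrophage marker sums in each of the 4 groups: 270 FPKM in C57-non-IR, 326 FPKM in Slit2-non-IR, 233 FPKM in C57-IR and 263 FPKM in Slit2-IR, where the other 8 libraries lay between 370 and 525 FPKM. Endothelial marker sums were also lowest in Slit2-non-IR, C57-IR and Slit2-IR replicate 1, at 303, 307 and 306 FPKM, against 498 FPKM in C57-non-IR replicate 1. The labels do not say whether a number stands for a shared day or batch, and the part of this in the called genes was not tested.

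Atrial markers summed to 2002 FPKM in Slit2-IR replicate 1, where the other 11 libraries lay between 186 and 423 FPKM. None of the 9 tested atrial genes was called, which is near the share of all tested genes.

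The heme oxygenase gene Hmox1, which was not called (1.64 ± 0.46, adjusted p = 0.0701 in limma), had a median of 6.29 FPKM (3.96 to 36.97) in non-IR and a median of 28.5 FPKM (14.5 to 48.6) in IR hearts. Rpl17 stood apart from the other ribosomal protein genes with 0.86 ± 0.24 (adjusted p = 0.0733), where the median of the 81 was 0.11.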
